A study of Homo sapiens with 4 samples.

Results

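Transforming growth factor beta (TGF-beta) is a secreted cytokine that is released in a latent form and held in the extracellular matrix until it is activated. The active ligand binds the type II receptor, which phosphorylates the type I receptor, and this kinase in turn phosphorylates SMAD2 and SMAD3. The phosphorylated SMADs bind SMAD4, enter the nucleus and act on target genes, among them the inhibitor SMAD7 and the matrix protein TGFBI. In epithelial cancers the pathway is known both for growth arrest and for matrix production and invasion.

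The set described here holds 10 of the 13165 genes measured, chosen by gene symbol: the ligands TGFB1 and TGFB2, the latency protein LTBP1, the receptors TGFBR1 and TGFBR2, the SMAD proteins SMAD2, SMAD3, SMAD4 and SMAD7, and TGFBI. The set was selected on these data, with the difference of TGFBI between the groups already known, and TGFBI is also among the genes the study displayed from the same libraries. All values below are therefore a description, and the level of TGFBI is not independent evidence of a direction.

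RNA was sequenced from TPC1, an established cell line of human papillary thyroid cancer grown in DMEM with 10% fetal bovine serum, in 2 groups of 2 libraries. TPC1-INAVA cells carried a vector expressing INAVA (innate immunity activator, labelled C1orf106), and TPC1-Vector cells carried the empty vector. The study's methods describe retroviral delivery where the labels say transfection, and both groups were selected as stable lines with 0.5 µg/mL puromycin for 2 weeks. The labels do not say whether the libraries of a group came from separate cultures. The authors deposited 1 FPKM value per gene and group (fragments counted per kilobase of transcript and scaled to library size, a level per length). The libraries of a group were pooled in these values, so no spread or test could be computed from them here, and the p-values of the authors' own comparison were not used. The number of reads behind a value is unknown.

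INAVA itself was at 7.96 FPKM in TPC1-Vector against 123 in TPC1-INAVA, a ratio of 15.4, as the labels imply. Of 7 thyroid markers, 2 were listed: PAX8, a thyroid transcription factor, at 60.1 and 55.7 FPKM, and FOXE1 at 5.26 and 5.89 FPKM, while the other 5 were not analysed here. The summed level of the 2 of 6 fibroblast markers listed was 2.63 FPKM in TPC1-Vector against 1.62 in TPC1-INAVA, that of the 3 of 6 macrophage and leukocyte markers was 6.95 and 9.85 FPKM, most of it CD68, and no endothelial marker of 4 was listed. Of 6 epithelial markers, 3 were listed: the keratin KRT8 at 23.4 and 10.5 FPKM, a ratio of 0.450, its partner KRT18 at 140 and 212 FPKM, a ratio of 1.51, and KRT7 at 1.97 and 2.01 FPKM. KRT8 and KRT18 share a position in the table, and their values may be split between them. The part of these markers in the values below was not tested. Over all genes kept, log2 fold changes had a median of 0.0033. 1 small nucleolar RNA entry made up 77.4% of the summed FPKM in TPC1-Vector and was listed at 0 in TPC1-INAVA.

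Of the 10 genes, TGFBI differed most between the groups. TGFBI encodes a secreted matrix protein that binds collagens and integrins and was named for its induction by TGF-beta. It lies on the forward strand of chromosome 5 (chr5:136028895-136063818, GRCh38), where no other annotated gene overlaps it. TGFBI was at 4.41 FPKM in TPC1-Vector against 12.3 in TPC1-INAVA, a ratio of 2.78. With 0.5 added to each FPKM value, the log2 fold change was 1.38, and TGFBI ranked 33 from the top among the 12305 genes kept, whose FPKM averaged 0.5 or more over both groups. By its mean level TGFBI stood at percentile 41.4 of these genes, below the middle of the expressed genes.

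The other 9 genes lay closer together. On the log2(FPKM + 0.5) scale, 5 of the 10 genes were above 0 and 5 below, with a median of 0.04. TGFBI alone was at least 1.5-fold higher, where 2.24% of all genes were, and at least 2-fold higher, where 0.610% of all genes were. No member was at least 1.5-fold lower (1.45% of all genes) or at least 2-fold lower (0.244% of all genes). By the ratio of the FPKM values as deposited, LTBP1 joined TGFBI above 1.5, where 3.36% of all genes were, and again no member was past 1.5 in the lower direction, where 2.69% of all genes were. Since the same difference chose the set, nothing is read from these shares.

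**Figure D1:**
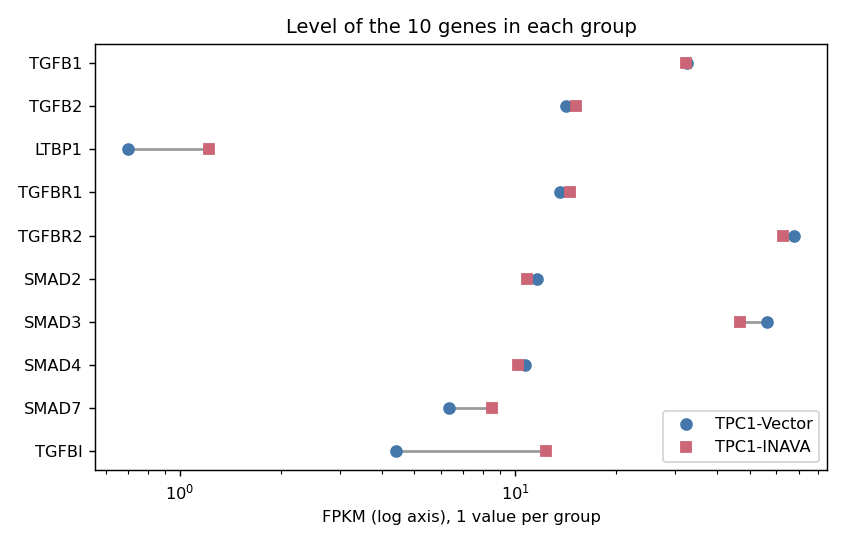
Level of each of the 10 genes in TPC1-Vector (circles) and TPC1-INAVA (squares), in FPKM on a log axis, 1 value per group without error bars. The symbols lie apart for TGFBI (4.41 and 12.3), LTBP1 (0.702 and 1.22) and SMAD7 (6.35 and 8.51) and nearly touch for TGFB1 (32.4 and 32.3).

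The ligands were at nearly the same level in both groups. TGFB1, the more abundant of the pair, was at 32.4 FPKM in TPC1-Vector against 32.3 in TPC1-INAVA, a ratio of 0.997. TGFB2, a ligand of the same family, was at 14.2 and 15.2 FPKM, a ratio of 1.07. TGFB3 was at 0.724 and 0.630 FPKM, so that TGFB1 made up 68.4% of the summed FPKM of the 3 ligands in TPC1-Vector and 67.1% in TPC1-INAVA. In the table TGFB2 shares its position on chromosome 1 with TGFB2-AS1 (0.526 and 0.196 FPKM) and TGFB2-OT1 (2.0 and 2.93 FPKM), and 26.6% of its annotated exon bases also belong to TGFB2-OT1. The division of reads among these genes is uncertain.

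LTBP1, which tethers latent TGF-beta to the matrix, had the lowest level of the set. It was at 0.702 FPKM in TPC1-Vector against 1.22 in TPC1-INAVA, a ratio of 1.74 between low values. Its log2 fold change was 0.52 with 0.5 FPKM added, short of 1.5-fold, and 0.72 with 0.1 FPKM added, past it. The other latent TGF-beta binding proteins were at higher levels. LTBP2 was at 11.2 and 12.2 FPKM, LTBP3 at 14.8 and 17.8 FPKM, and LTBP4 at 17.0 and 19.2 FPKM. LTBP1 made up 1.61% of the summed FPKM of the 4 genes in TPC1-Vector and 2.42% in TPC1-INAVA.

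Both receptors differed little. The type II receptor TGFBR2 had the highest level of the 10 genes, with 67.8 FPKM in TPC1-Vector against 62.9 in TPC1-INAVA, a ratio of 0.928. The type I receptor TGFBR1 was at 13.6 and 14.5 FPKM, a ratio of 1.07. The ratio of TGFBR2 to TGFBR1 within a group was 4.99 in TPC1-Vector and 4.34 in TPC1-INAVA.

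Among the SMADs, the receptor-activated SMAD3 was the most abundant and SMAD7 the one with the highest ratio between the groups. SMAD3 was at 56.4 FPKM in TPC1-Vector against 46.6 in TPC1-INAVA, a ratio of 0.827, the lowest of the 10 genes. SMAD2, the other TGF-beta receptor substrate, was at 11.6 and 10.8 FPKM, a ratio of 0.926. The common partner SMAD4 was at 10.7 and 10.2 FPKM, a ratio of 0.954. SMAD3 was thus at 4.84 times the level of SMAD2 in TPC1-Vector and 4.32 times in TPC1-INAVA.

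SMAD7, which blocks the type I receptor and is itself induced by the pathway, was at 6.35 FPKM in TPC1-Vector against 8.51 in TPC1-INAVA. Its ratio was 1.34 and its log2 fold change 0.40, which ranked 635 from the top of the 12305 genes. The ratio of SMAD7 to SMAD3, computed after the values were seen, was 0.113 in TPC1-Vector and 0.183 in TPC1-INAVA. In TPC1-Vector the order of levels, from the top, was TGFBR2, SMAD3, TGFB1, TGFB2, TGFBR1, SMAD2, SMAD4, SMAD7, TGFBI and LTBP1. In TPC1-INAVA, TGFBI stood between TGFBR1 and SMAD2 and the other genes kept their order. With 1 value per group, no spread shows which neighbours in this order differ.

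**Figure D2:**
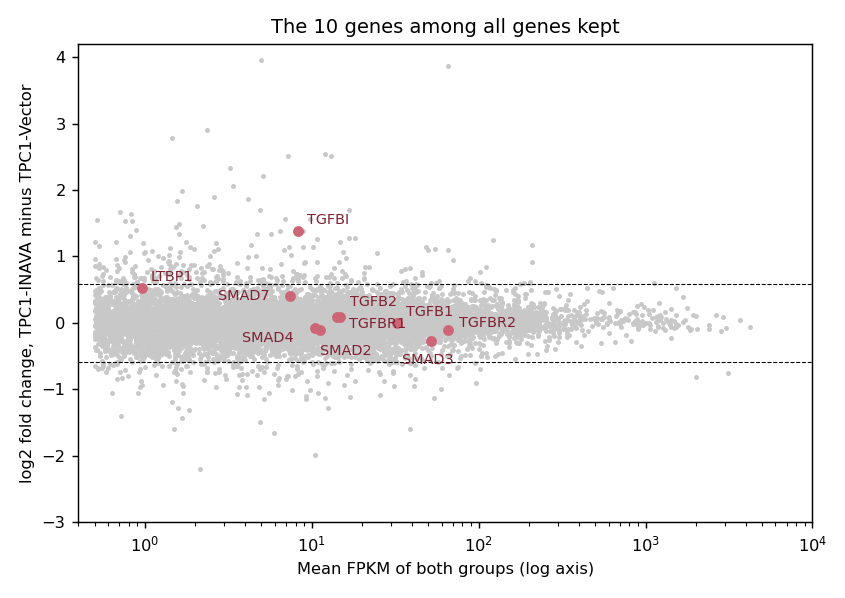
Log2 fold change with 0.5 FPKM added (TPC1-INAVA minus TPC1-Vector) against mean FPKM (log axis) for the genes kept (grey) and the 10 genes (red), with dashed lines at 1.5-fold and 4 genes outside the axes. TGFBI, at 1.38, stands above the upper line, and the other 9 genes lie between the lines.

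**Figure D3:**
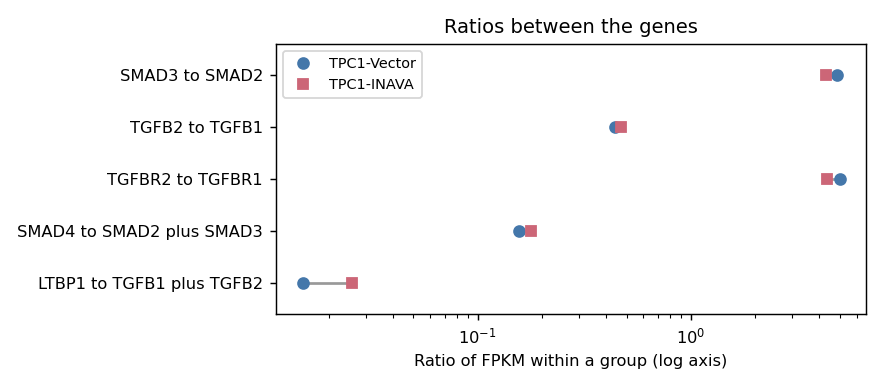
Ratios of FPKM between genes of the set within TPC1-Vector (circles) and TPC1-INAVA (squares), on a log axis, 1 value per group. SMAD3 to SMAD2 (4.84 and 4.32) and TGFBR2 to TGFBR1 (4.99 and 4.34) lie near each other, SMAD4 was at 0.157 and 0.178 of SMAD2 plus SMAD3, TGFB2 at 0.439 and 0.471 of TGFB1, and LTBP1 at 0.0151 and 0.0257 of TGFB1 plus TGFB2.

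SMAD proteins bind the letters CAGAC, so these were searched on both strands (CAGAC or GTCTG) in the RefSeq promoter windows of GRCh38.p14, which run from 250 bases before a gene's start to 50 bases after it. All 10 genes had a window. The window nearest the table's position held a match for TGFB2, TGFBR1, SMAD3, SMAD7 and LTBP1 and none for TGFBI, TGFB1, TGFBR2, SMAD2 and SMAD4. Of all 35116 windows, 45.3% held a match. The palindrome GTCTAGAC, the same on both strands and without a full CAGAC or GTCTG in it, was in 0.202% of all windows and in none of the members' windows. The 250 bases before the start are printed 5′ to 3′ for the 3 genes with the highest ratios between the groups, TGFBI (forward strand, chr5:136028738-136028987), LTBP1 (forward strand, chr2:32946703-32946952) and SMAD7 (reverse strand, chr18:48950966-48951215), and for TGFB1 (reverse strand, chr19:41353923-41354172), whose ratio was nearest 1. Capitals mark the matches.
TGFBI: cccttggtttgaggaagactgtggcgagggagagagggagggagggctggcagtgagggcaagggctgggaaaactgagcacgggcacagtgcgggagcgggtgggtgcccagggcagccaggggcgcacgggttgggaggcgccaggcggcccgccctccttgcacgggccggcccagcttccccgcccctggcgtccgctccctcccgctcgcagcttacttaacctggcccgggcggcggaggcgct
LTBP1: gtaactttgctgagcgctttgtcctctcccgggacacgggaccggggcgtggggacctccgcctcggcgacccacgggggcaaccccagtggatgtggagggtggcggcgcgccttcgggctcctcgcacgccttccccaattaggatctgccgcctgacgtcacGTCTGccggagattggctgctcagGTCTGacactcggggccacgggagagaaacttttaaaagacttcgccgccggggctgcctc
SMAD7: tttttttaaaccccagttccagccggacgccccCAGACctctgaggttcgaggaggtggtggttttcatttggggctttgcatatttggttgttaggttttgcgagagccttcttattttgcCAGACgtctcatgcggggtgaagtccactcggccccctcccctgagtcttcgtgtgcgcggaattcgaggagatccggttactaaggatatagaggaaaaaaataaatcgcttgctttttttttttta
TGFB1: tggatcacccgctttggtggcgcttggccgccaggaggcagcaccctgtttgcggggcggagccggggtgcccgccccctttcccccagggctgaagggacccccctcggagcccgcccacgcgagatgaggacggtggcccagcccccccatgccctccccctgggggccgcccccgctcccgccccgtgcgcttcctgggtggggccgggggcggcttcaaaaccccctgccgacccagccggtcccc

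The first base of the matches in LTBP1 lies at -85 and -61 from the start, and in SMAD7 at -217 and -128. This start is that of the RefSeq window. It lies 349 bases from the 5′ end of the listed gene position for LTBP1, 254 for SMAD7, 93 for TGFBI and 11 for TGFB1. For TGFB2 the distance was 1140 bases. In TGFBI and TGFB1 the printed bases run into the listed position. TGFBI, with the highest ratio of the 10 genes, and TGFB1, with the ratio nearest 1, both lacked these letters in the window. Of the 250 bases, 72.8% were G or C in TGFBI, 76.8% in TGFB1, 66.4% in LTBP1 and 48.0% in SMAD7. A match is a feature of the letters, and binding was not measured.

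The other genes of the pathway were described by lists. These lists were chosen with earlier results of these data known, so nothing is read from the shares of any list, here or below. Over all lists beside the 10 genes, 85 genes were kept, of which 10 were at least 1.5-fold higher in TPC1-INAVA (2.24% of all genes were) and 2 at least 1.5-fold lower (1.45% of all genes were), with a median log2 fold change of 0.11. By the ratio of the FPKM values as deposited, 12 were past 1.5 in the higher direction (3.36% of all genes were). In the lower direction 4 were (2.69% of all genes were). Lists of ligands, receptors and activators had no gene past 1.5-fold. Of 6 other ligands kept, 3 were above 0 and 3 below, with a median of -0.05, and the most abundant were GDF15, a stress-induced relative (42.9 and 36.7 FPKM), BMP4 (10.1 in both groups) and GDF11 (3.47 and 3.19 FPKM). Of 9 other receptors, 2 were above 0 and 7 below, with a median of -0.14. The co-receptor endoglin (ENG) was at 119 FPKM in TPC1-Vector against 154 in TPC1-INAVA, a ratio of 1.29.

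Of 13 genes of latency and activation, 9 were above 0, with a median of 0.11. The integrin subunit ITGB1 was at 504 and 573 FPKM, thrombospondin THBS1, which can activate latent TGF-beta, at 372 and 364 FPKM, and the integrin subunit ITGB3 at 85.8 and 75.3 FPKM. Among 17 intracellular regulators, 1 was at least 1.5-fold higher (2.24% of all genes were) and none at least 1.5-fold lower, with a median of 0.08. It was BAMBI, a decoy receptor without a kinase domain, at 1.72 FPKM in TPC1-Vector against 3.38 in TPC1-INAVA, a ratio of 1.96. The most abundant regulators were FKBP1A, which binds the type I receptor (230 and 259 FPKM, at a position shared with SDCBP2-AS1), STRAP (138 in both groups) and WWP1, a ubiquitin ligase (43.4 and 38.1 FPKM).

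TGF-beta target genes, a list also chosen with earlier results of these data known, included genes above and below 0. Of the 22 kept, 5 were at least 1.5-fold higher (2.24% of all genes were) and none at least 1.5-fold lower, and 15 were above 0, with a median of 0.20. The cell cycle inhibitor CDKN1A was at 71.8 FPKM in TPC1-Vector against 172 in TPC1-INAVA, a ratio of 2.40, and is also a p53 target. Fibronectin (FN1) was at 144 and 272 FPKM, a ratio of 1.89. The actin-binding TAGLN was at 3.55 and 22.5 FPKM, a ratio of 6.34, and smooth muscle actin ACTA2 at 5.18 and 8.28 FPKM, a ratio of 1.60. TAGLN shares its position in the table with SIDT2 (2.71 and 2.46 FPKM) and ACTA2 with FAS (22.1 and 24.7 FPKM), so their values may be split between genes. The cytokine IL11, also displayed by the study from these libraries, was at 0.807 and 1.63 FPKM, a ratio of 2.02.

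The most abundant target genes were the transglutaminase TGM2 (412 and 473 FPKM) and tropomyosin TPM1 (209 and 288 FPKM), followed by FN1. Other well known targets lay lower in TPC1-INAVA or differed less. SKIL, a SMAD corepressor, was at 7.48 and 6.10 FPKM, the collagen gene COL1A1 at 0.937 and 0.571 FPKM, and CCN2, listed as CTGF, at 61.3 and 71.2 FPKM. PMEPA1, an inhibitor that is itself a target, was at 5.20 and 7.99 FPKM, a log2 fold change of 0.57, just short of 1.5-fold, and a ratio of 1.54, just past it, at a position shared with NKILA (0.459 and 0.725 FPKM). By the ratio as deposited, 6 of the 22 target genes were past 1.5 in the higher direction (3.36% of all genes were). In the lower direction 1 was, COL1A1 with a ratio of 0.609 (2.69% of all genes were). SKIL, COL1A1, CCN2 and PMEPA1 were chosen after their values were seen. SKIL lies on chromosome 3 and PMEPA1 on chromosome 20, and whether the genes around them differ alike was not tested.

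TGFBI binds collagen VI and integrins, and 3 genes of the list of its relatives and binding partners were kept. COL6A1 was at 41.2 FPKM in TPC1-Vector against 62.4 in TPC1-INAVA, a ratio of 1.52, and was past 1.5-fold. COL6A2, which adjoins it on chromosome 21, was at 41.2 and 60.5 FPKM, a ratio of 1.47. The integrin subunit ITGA3 was at 199 and 189 FPKM. The remaining 4 genes of the list were not analysed here.

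**Figure D4:**
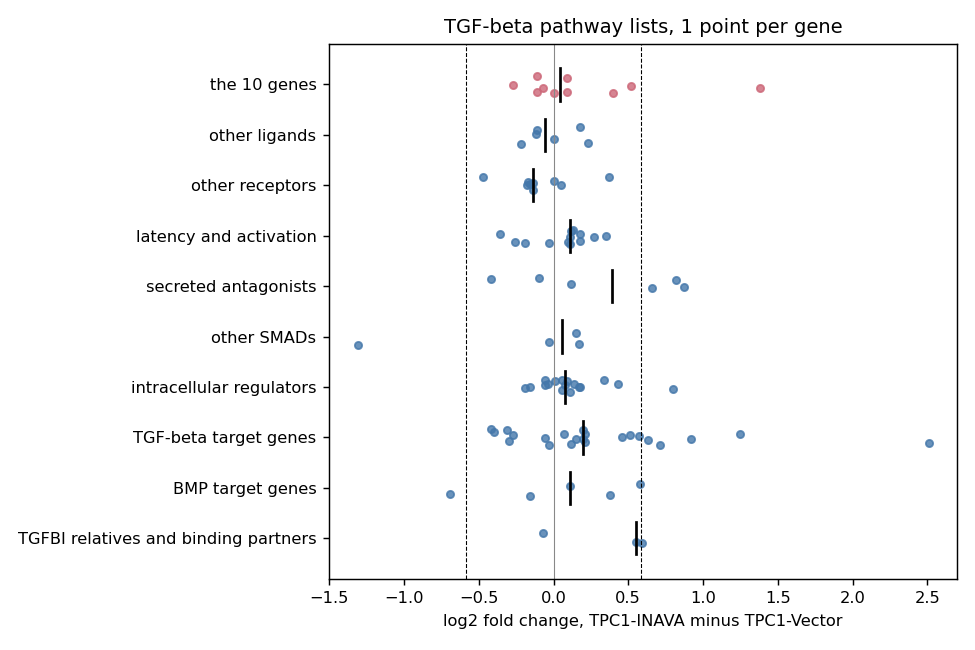
Log2 fold change with 0.5 FPKM added (TPC1-INAVA minus TPC1-Vector) of each gene kept in the 10 genes (red) and in 9 lists of other pathway genes (blue). Black bars are list medians and dashed lines mark 1.5-fold. TAGLN, at 2.51, and SMAD6, at -1.31, are the outermost points.

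The genes nearest TGFBI on the chromosome were closer to 0. Within 1 Mb, 4 other genes were kept, with log2 fold changes from -0.08 to 0.17 and a median of 0.05. Of these, H2AFY, PITX1 and C5orf66 all lie at -833 kb, midpoint to midpoint, so their values may be split among them. Within 2 Mb, 20 genes had a median of 0.01, and 1 of them was past 1.5-fold, at 1.27. The nearest gene was SMAD5, which carries bone morphogenetic protein (BMP) signals and lies 65.7 kb away. SMAD5 was at 18.7 FPKM in TPC1-Vector against 21.0 in TPC1-INAVA, a ratio of 1.13. Around LTBP1, 5 genes ranged from -0.03 to 0.21, and around SMAD7, 6 genes ranged from -0.27 to 0.04, while LTBP1 was at 0.52 and SMAD7 at 0.40. Near SMAD7, C18orf32, RPL17 and RPL17-C18orf32 all lie at 552 kb, so their values, too, may be split.

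SMAD3 has another SMAD as its neighbour. SMAD6, which inhibits BMP signalling, lies 284 kb from SMAD3 on chromosome 15. SMAD6 was at 2.83 FPKM in TPC1-Vector against 0.841 in TPC1-INAVA, a ratio of 0.297, and its log2 fold change of -1.31 ranked 11 from the bottom of the 12305 genes. The other inhibitory SMAD, SMAD7, thus stood on the opposite side of 0. The 13 genes kept within 1 Mb of SMAD3 had a median of -0.08, and SMAD6 was the 1 gene of them past 1.5-fold. Some of them, such as IQCH-AS1, C15orf61 and AAGAB at 233 kb, lie at the same distance, so their values may be split. The remaining SMADs of the BMP branch, SMAD1 (6.29 and 6.13 FPKM) and SMAD9 (1.74 and 2.0 FPKM), differed little.

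**Figure D5:**
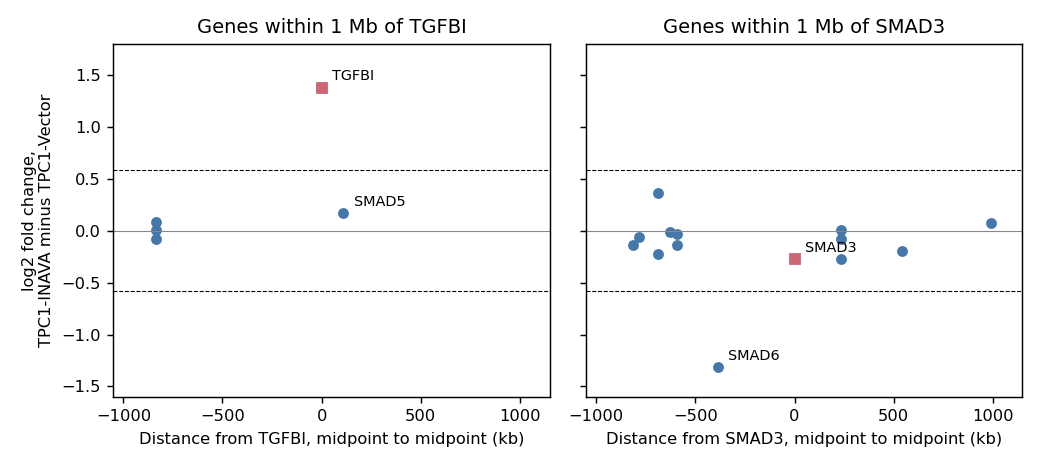
Log2 fold change with 0.5 FPKM added (TPC1-INAVA minus TPC1-Vector) of the genes kept within 1 Mb of TGFBI (left) and SMAD3 (right) against distance in kb, with the central gene as a red square and dashed lines at 1.5-fold. SMAD5, beside TGFBI (1.38), is at 0.17, and SMAD6, at -1.31, lies below the genes around SMAD3.

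Among the 5 genes most like TGFBI, by Euclidean distance of the log2(FPKM + 0.5) values of the 2 groups, were RGS4, CDH13, TMEM132A and PDPN. RGS4 was nearest (distance 0.123), at 4.71 FPKM in TPC1-Vector against 13.1 in TPC1-INAVA. CDH13 was at 4.39 and 10.2 FPKM (distance 0.247) and TMEM132A at 4.78 and 10.3 FPKM (distance 0.268). PDPN, at 4.67 and 14.8 FPKM (distance 0.273), is also among the genes the study displayed. With 2 values per gene, likeness means only a like level in each group.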

How the data were processed

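RNA was sequenced from TPC1-Vector and TPC1-INAVA cells (2 libraries each, NEBNext Ultra kit per the labels, VAHTS kit per the study's methods). For 13165 genes the authors deposited a single FPKM level in each group. The submitters' processing notes name CASAVA, Cufflinks 2.1.1, Cuffdiff and hg38. The aligner and annotation are not given in the sources used here. The table's log2 ratio, p-value and q-value columns are the authors' own comparison and were not used.

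The 10 genes and the pathway lists were chosen with earlier results of these data known. The 12305 genes whose FPKM averaged 0.5 or more over both groups were kept. Fold changes are differences of log2(FPKM + 0.5), a scale that shrinks differences between low values, and calls are folds of at least 1.5 or 2. No test was run, because the FPKM values used pool the libraries of a group. The text names the 10 genes, INAVA, and in each list every gene past 1.5-fold and the 3 of highest mean FPKM, plus the 5 genes nearest TGFBI, with exceptions named as such. Some genes that this rule or the lists cover are not reported here. Gene positions are the table's, with starts shifted to count from 1, and overlaps come from GENCODE release 29 (GRCh38). A position in the file is shared with another gene for 2612 genes. Python 3.11.15, numpy 2.4.6, pandas 2.3.3 and matplotlib 3.10.9 were used, and the scripts were tested on simulated data. Alternatives were quantile normalization, median-of-ratios scaling, pseudocounts of 0.1 and 1, an average of 1 FPKM or more, no filter, neighbour windows of 0.5 and 2 Mb and, chosen after seeing the data, no pseudocount and lists without genes that share a position.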

Additional observations from a re-analysis of the deposited data

How the results depend on the processing

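No paired analysis was possible because the FPKM values used hold 1 value per group, and for the same reason leaving out each replicate was not run. Of 255 values under an alternative, 238 stayed on the same side of 1.5-fold (single genes), within 1.5 times (counts) or within 0.1 (medians). TGFBI, the 1 of the 10 genes past 1.5-fold, did not change sign. The filters alter which genes are kept and not a gene's own fold change, so single-gene values under them could not move. A pseudocount is added to both values alike and cannot change a sign. Only quantile normalization and median-of-ratios scaling could have changed the sign of a single gene. The log2 fold change of TGFBI ranged from 1.29 to 1.48. LTBP1 was at 0.72 with a pseudocount of 0.1 and 0.80 without one, past 1.5-fold, so that 2 of the 10 genes were then at least 1.5-fold higher. It ranged from 0.38 to 0.80 and had no value with a mean of at least 1 FPKM. With a pseudocount of 0.1, 289 genes of the table were at least 1.5-fold lower, 121 at least 2-fold higher and 58 at least 2-fold lower. Without one, and without genes at 0, the counts were 329, 151 and 68, and 4 pathway list genes were at least 1.5-fold lower. The median of BMP target genes was 0.24 with a mean of at least 1 FPKM, and that of secreted antagonists 0.12 without genes that share a position. The median of genes near TGFBI was 0.17 (1 gene) with a window of 0.5 Mb against 0.05 with 1 Mb, and near SMAD7 -0.21 against -0.09. It changed sign near TGFB1 (-0.09 with 0.5 Mb against 0.03) and near TGFB2 (-0.08 with 2 Mb against 0.22). Near TGFBR1 it also changed sign (-0.04 with 2 Mb against 0.03), though by less than 0.1. Windows of 0.5 Mb around TGFBR2 and SMAD2 held no other gene kept. The medians moved with the genes in each window or list, and LTBP1 with the pseudocount because its level is low. The read depth is unknown.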

Other observations

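The BMP side of the family, which signals through SMAD1, SMAD5 and SMAD9, gave mixed values. Its lists, too, were chosen with earlier results of these data known, and nothing is read from their shares. Of 6 secreted antagonists kept, 3 were at least 1.5-fold higher in TPC1-INAVA (2.24% of all genes were) and none at least 1.5-fold lower (1.45% of all genes were) on the log2(FPKM + 0.5) scale. Their median was 0.39, and 0.12 without genes that share a position. They were the BMP antagonist NOG (1.20 FPKM in TPC1-Vector against 2.60 in TPC1-INAVA, a ratio of 2.17), the activin-binding FSTL3 (9.67 and 17.5 FPKM, a ratio of 1.81) and the proteoglycan BGN (3.85 and 6.37 FPKM, a ratio of 1.66). BGN shares its position in the table with HAUS7 (20.4 and 22.3 FPKM). The BMP antagonist CHRD lay the other way, at 1.49 and 0.991 FPKM, and the most abundant antagonists, TWSG1 (35.5 and 33.1 FPKM) and CHRDL1 (26.4 and 28.8 FPKM), differed little.

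Among the receptors, BMPR1A was at 22.8 FPKM in TPC1-Vector against 16.3 in TPC1-INAVA, a ratio of 0.716, and BMPR2 at 12.1 and 10.7 FPKM. BMPR1A lies on chromosome 10, and whether the genes around it differ alike was not tested. Of 5 BMP target genes, 1 was at least 1.5-fold lower (1.45% of all genes were). Their median was 0.11, and 0.24 among genes averaging 1 FPKM or more. It was ID4, at 3.55 and 2.01 FPKM, a ratio of 0.565. The other inhibitors of DNA binding lay above 0: ID1 at 101 and 132 FPKM, ID2 at 42.1 and 45.3 FPKM, and ID3 at 17.1 and 25.9 FPKM, a log2 fold change of 0.58 just under 1.5-fold and a ratio of 1.51. CHRD was named after its values were seen. It lies on chromosome 3, and whether the genes around it differ alike was not tested. No replicate check was made of these differences, since the values used pool the libraries of a group.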
